A study of Mus musculus with 6 samples.

Results

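The genes described here are Cd74, Ciita and 6 genes of the mouse MHC class II region, H2-Aa, H2-Ab1, H2-Eb1, H2-DMa, H2-DMb1 and H2-Oa. They were chosen by name for their place in the class II antigen presentation pathway, and all 8 were found among the 41388 genes of the table. They were compared in Th9 cells, a T helper subset known for IL-9, of 2 genotypes: wild-type (WT) mice on the C57BL/6 background and Irf1-/- mice, which lack the IFN-γ-induced transcription factor IRF1 in every cell. The labels give T cells taken from spleen and lymph nodes by magnetic removal of other cells. The study's methods call the cells naive CD4+ T cells and describe, for some experiments, a further flow sort of naive cells, without saying whether these cultures had it. Cultures of both genotypes were stimulated with antibodies to CD3 and CD28 in the presence of IL-2, TGF-β and IL-4. They received IFN-γ for 2 days. By the study's general culture methods, an antibody to mouse IFN-γ was also present and the added IFN-γ was that of the rat. Each genotype had 3 cultures, there was no culture without IFN-γ in this comparison, and the RNA was that of the whole culture, in which fewer cells of a type and less RNA per cell cannot be told apart.

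MHC class II molecules are α/β pairs that display peptides to CD4+ T cells. The invariant chain, encoded by Cd74, occupies their groove until proteases cut it down to the CLIP fragment, which H2-DM exchanges for peptide under the restraint of H2-DO. B cells, dendritic cells and macrophages make the pathway's genes at high levels, IFN-γ induces them in many other cells through the co-activator CIITA, and mouse T cells are known for making little or none of the class II chains, whereas CD74 is also a surface receptor for the cytokine MIF. CIITA does not bind DNA itself and acts through factors assembled on an X box and a Y box upstream of class II genes.

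The X and Y boxes are shown here because they are the sequences through which the pathway's genes share CIITA. RefSeq promoter windows (build GRCm38.p6, 250 bases before a transcript start) were found for 5 of the 8 genes, H2-Aa, H2-Eb1, H2-DMa, H2-DMb1 and H2-Oa, and the windows of the H2-DO β chain gene, H2-Ob, and of H2-Eb2 and H2-DMb2 were searched with them. The pattern searched was the letters GNAAC, taken as part of the X box, followed after 18 to 34 bases by the Y box core GATTGG. It was chosen after the sequences had been viewed. Below, capitals mark those letters in the stretches of the coding strand, 5′ to 3′, at chr17:34287867-34287916 (H2-Aa, - strand), chr17:34305764-34305812 (H2-Eb1, + strand), chr17:34092291-34092340 (H2-Oa, + strand) and chr17:34238806-34238852 (H2-Ob, + strand).
H2-Aa: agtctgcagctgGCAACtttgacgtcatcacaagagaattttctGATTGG
H2-Eb1: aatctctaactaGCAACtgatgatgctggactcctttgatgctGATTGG
H2-Oa: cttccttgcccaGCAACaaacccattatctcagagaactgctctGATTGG
H2-Ob: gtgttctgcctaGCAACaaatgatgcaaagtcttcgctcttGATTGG
The interval between the marked letters was 27 bases in H2-Aa and H2-Oa, 26 in H2-Eb1 and 24 in H2-Ob, and H2-DMb1 and H2-Eb2 also held the pattern. It was not found in either of the H2-DMa windows or in that of H2-DMb2. On either strand, 0.813% of all 32851 RefSeq windows held it, and 14.6% held GATTGG. The shorter pattern AANNGAAA of an interferon-stimulated response element, the kind of site IRF1 binds, was present on either strand in 21.3% of all windows, in the windows of H2-Aa and H2-Eb2 and in 1 of the windows of H2-DMa. A match to letters is a description of the sequence and not evidence of binding.

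The deposited values are normalized counts, in which each gene's reads were scaled by the library's size factor. The libraries held 6381576 to 13348230 reads on genes in WT cells and 5639788 to 12423511 in Irf1-/- cells, with replicate 3 the largest of each genotype, and 3 reads, the lowest level taken as measurable, were worth normalized counts of 1.84 to 4.16. Reads on the targeted gene Irf1 were lower in each Irf1-/- library than in any WT library, the log2 fold change being -0.78 (adjusted p = 7.32e-05 by limma). Y-linked transcripts were found in WT replicates 1 and 2 and Xist in the other 4 libraries, so part of each genotype contrast cannot be told apart from this difference between the libraries. Of the 10 T-cell markers listed, including Cd3d, Cd3e and Cd4, all passed the filter on low values.

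Of the 8 genes, 6 had a mean normalized count of at least 10 and were tested, and Ciita and H2-Aa were too low. Cd74 and H2-Ab1 were higher and H2-DMa was lower in Irf1-/- cells at an adjusted p below 0.05 (limma on log2 of the normalized count plus 1, Benjamini-Hochberg adjustment over all 11379 genes tested), while H2-Eb1, H2-DMb1 and H2-Oa were not called. By the same rule, 11.4% of all genes tested were higher and 12.4% lower. For these 3 genes the genotypes were fully separated, 2 with all Irf1-/- values above and 1 with all below those of WT cells, against 19.7% and 20.9% of all genes tested (40.5% in either direction). The median log2 fold change of the 6 genes was 0.42, beside -0.00 for all genes. The plot of the 8 genes by library shows the 3 patterns.

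**Figure D1:**
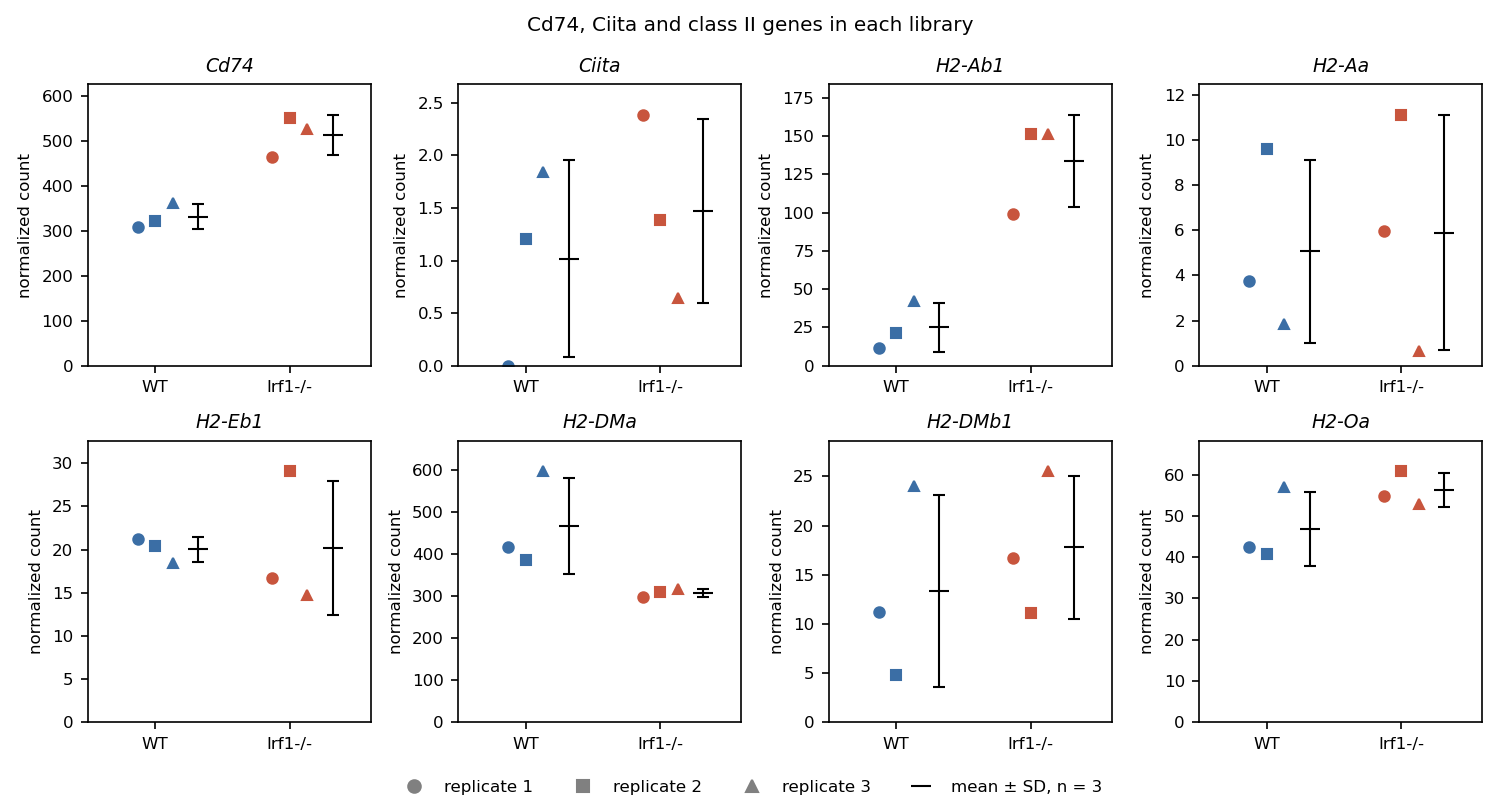
Normalized count (y axis, from 0, a separate scale in each panel) of the 8 genes in the 3 WT and 3 Irf1-/- libraries (x axis); points are libraries, symbols replicates, and bars the mean ± SD (n = 3). Cd74 and H2-Ab1 lie higher and H2-DMa lower in every Irf1-/- library than in any WT library, and the values of the other 5 genes overlap.

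Ciita (ENSMUSG00000022504, chromosome 16 from 10480059 to 10528418 on the + strand of GRCm38) encodes the co-activator on which the other class II genes depend in professional antigen-presenting cells. Among WT libraries, replicate 1 had 0 reads on it, replicate 2 had 1 and replicate 3 had 3, and the Irf1-/- libraries had 2, 1 and 1 in the same order. No library held more than 3 reads, so a difference between the genotypes was not detectable at this depth and no fold is given. Dexi, which overlaps Ciita over 25888 bases on the other strand, had mean normalized counts of 96.4 in WT and 115 in Irf1-/- cells and was not called (adjusted p = 0.258 by limma). Nlrc5, the relative of CIITA that acts on class I genes, was abundant in the same libraries, with mean normalized counts of 1739 ± 89.9 and 1568 ± 68.9 for WT and Irf1-/- cells (SD, n = 3 each).

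Cd74 (ENSMUSG00000024610, chromosome 18 from 60803848 to 60812652 on the + strand) was the most abundant of the 8 genes per length in both genotypes. In the order of replicates 1, 2 and 3, its normalized counts were 308.2, 322.2 and 362.7 for WT and 464.4, 550.6 and 526.0 for Irf1-/- cells, and values are given in this order from here on. All Irf1-/- libraries lay above all WT libraries. The means of 331 ± 28.3 and 514 ± 44.4 (SD, n = 3 each) had a ratio of 1.55, and limma's difference of mean log2 values was 0.63 (95% interval 0.43 to 0.83, standard error 0.0906, adjusted p = 0.000847 by limma). Per kilobase of exon, Cd74 stood above 78.7% of the genes tested in WT cells and above 87.1% in Irf1-/- cells. The log2 fold change was 0.68 in the 4 smaller libraries, 0.54 between the larger ones and 0.50 in the 4 libraries with Xist, groupings chosen after the data had been seen. The Xist grouping holds 1 WT library and is given here as a value with no test, and the call was kept under the 18 other alternatives. Cd74 was thus at a normalized count of 308.2 or more in libraries in which Ciita had at most 3 reads.

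The classical class II chains were far lower than Cd74 and did not move as a unit. H2-Ab1 (ENSMUSG00000073421, chromosome 17 from 34257689 to 34269419 on the + strand) encodes the β chain of I-A. The WT cultures had normalized counts of 11.2, 21.6 and 42.4 (9, 18 and 69 reads), and the Irf1-/- cultures of 99.1, 151.2 and 151.5 (83, 109 and 237 reads). Each Irf1-/- library exceeded each WT library, among which replicate 3 stood highest. The means were 25.1 ± 15.9 and 134 ± 30.1 (SD, n = 3 each), and limma's difference of mean log2 values was 2.53 (95% interval 1.70 to 3.37, standard error 0.378, adjusted p = 0.00111 by limma). Per kilobase, H2-Ab1 passed from above 14.0% to above 43.9% of the genes tested. The log2 fold change was 1.61 in the 4 libraries with Xist, where WT replicate 3 stands alone, 1.75 with a covariate for Y-linked transcripts, and 2.99 without WT replicate 3, and the call was kept under the 18 alternatives with 2 or more WT libraries.

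H2-Aa (ENSMUSG00000036594, chromosome 17 from 34282744 to 34287823 on the - strand) encodes the α chain with which the H2-Ab1 product pairs. No more than 3, 8 and 3 reads fell on it in WT cultures and 5, 8 and 1 in Irf1-/- cultures, equal to normalized counts of 3.74, 9.62 and 1.84, and of 5.97, 11.1 and 0.639. The genotypes overlapped fully, and replicate 2 was the highest and replicate 3 the lowest of each. Irf1-/- replicate 3, with 237 reads on H2-Ab1, thus held 1 read on H2-Aa, whose window carries the X and Y letters printed above. Per kilobase, the mean level of H2-Ab1 in Irf1-/- cells was 52.1 ± 11.7 and that of H2-Aa 1.55 ± 1.38 (SD, n = 3), and in WT cells the levels were 9.77 ± 6.18 and 1.33 ± 1.07. With 3 or fewer reads on H2-Aa in 3 of the libraries, the values of ratios to it are not given.

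H2-Eb1 (ENSMUSG00000060586, chromosome 17 from 34305867 to 34316674 on the + strand) encodes the β chain of I-E, whose α chain gene is disrupted in C57BL/6 mice. H2-Eb1 stood at normalized counts of 21.2, 20.4 and 18.4 in WT and 16.7, 29.1 and 14.7 in Irf1-/- cultures. The Irf1-/- libraries lay on both sides of the WT range. The log2 fold change was -0.05 (95% interval -0.71 to 0.61, adjusted p = 0.930 by limma), an interval that leaves out the increase measured for H2-Ab1 and includes the decrease measured for H2-DMa. The α chain gene H2-Ea was listed at 0 in all 6 libraries, and H2-Eb2 had normalized counts of at most 2.50.

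Of the genes for H2-DM, which catalyses peptide loading, the α chain gene was more abundant per length than either β chain gene. It was called lower, and neither β chain gene was called. H2-DMa (ENSMUSG00000037649, chromosome 17 from 34119541 to 34139101 on the + strand), for the α chain, was at normalized counts of 415.6, 385.9 and 596.9 in WT and 296.1, 307.9 and 316.3 in Irf1-/- cultures. Every Irf1-/- library lay below every WT library, and WT replicate 3 stood above the others. The means were 466 ± 114 and 307 ± 10.2 (SD, n = 3 each), and the log2 fold change was -0.58 (95% interval -0.88 to -0.27, standard error 0.138, adjusted p = 0.0130 by limma). The call was lost without Irf1-/- replicate 1 (adjusted p = 0.0509) and without the mean-variance trend (adjusted p = 0.0694), both by limma. The log2 fold change was -0.38 without WT replicate 3 and -0.96 in the 4 libraries with Xist. The 5′ part of H2-DMa overlaps Brd2 on the other strand over 3094 bases, where reads cannot be assigned if the counting ignored strand. Brd2 had a mean normalized count of 4147 in WT and 3859 in Irf1-/- cells and was not called (adjusted p = 0.271 by limma).

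H2-DMb1 (ENSMUSG00000079547, chromosome 17 from 34153072 to 34160230 on the + strand) encodes a β chain of H2-DM. It was measured at normalized counts of 11.2, 4.81 and 24.0 in WT and 16.7, 11.1 and 25.6 in Irf1-/- cultures. The genotypes overlapped, and replicate 3 was the highest of each. The log2 fold change of 0.56 had a 95% interval from -0.56 to 1.68 (adjusted p = 0.465 by limma). Its close paralog H2-DMb2, with which it may share reads, had 27.5, 34.9 and 65.2 in WT and 53.7, 37.4 and 78.0 in Irf1-/- libraries and was not called either (log2 fold change 0.43, adjusted p = 0.380 by limma). Per kilobase, H2-DMa stood at 89.0 ± 2.95 in Irf1-/- cells against 10.6 ± 4.34 for H2-DMb1 and 32.3 ± 11.7 for H2-DMb2 (SD, n = 3).

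H2-DO, the partner that restrains H2-DM, is known chiefly from B cells. H2-Oa (ENSMUSG00000024334, chromosome 17 from 34092340 to 34095234 on the + strand) encodes its α chain. The WT cultures held normalized counts of 42.4, 40.9 and 57.2 and the Irf1-/- cultures of 54.9, 61.0 and 53.0. WT replicate 3 lay within the Irf1-/- range and the other WT libraries below it. The log2 fold change was 0.28 (95% interval -0.13 to 0.68, adjusted p = 0.312 by limma). H2-Ob (ENSMUSG00000041538), for the β chain, had 22.5, 24.0 and 20.3 in WT and 43.0, 48.5 and 47.9 in Irf1-/- libraries. Its genotypes did not overlap, and their mean log2 values differed by 1.03 (standard error 0.196, adjusted p = 0.00426 by limma), and the call was kept under all 17 alternatives that could be fitted for it with 2 or more WT libraries.

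Of 7 ratios computed within a library, the pair with H2-Aa rested on few reads and overlapped between the genotypes, 1 was the inverse of another per kilobase, and the remaining 4 are given here. The ratio of H2-Ab1 to Cd74 reads was 0.0364, 0.0672 and 0.117 in WT and 0.213, 0.275 and 0.288 in Irf1-/- libraries. The ratio of H2-DMa to Cd74 was 1.35, 1.20 and 1.65 in WT, and 0.638, 0.559 and 0.601 in Irf1-/- libraries. H2-DMa reads thus outnumbered Cd74 reads in each WT library and were outnumbered by them in each Irf1-/- library. The ratio of H2-DMa to the sum of H2-DMb1 and H2-DMb2 was 10.7, 9.73 and 6.70 in WT, and 4.203, 6.34 and 3.06 in Irf1-/- libraries. For the chains of H2-DO, the ratio of H2-Ob to H2-Oa was 0.529, 0.588 and 0.355 in WT, and 0.783, 0.795 and 0.904 in Irf1-/- libraries. None of these 4 overlapped between the genotypes. For H2-Ab1 over Cd74, H2-DMa over Cd74 and H2-Ob over H2-Oa this follows from the ranges of the single genes given above and is no further test. H2-DMa over its β chains reached p = 0.1 by exact permutation, two-sided, which is the lowest value open to 3 against 3 libraries. The plot of these 4 ratios shows the separation and its small distance for H2-DMa over its β chains.

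**Figure D2:**
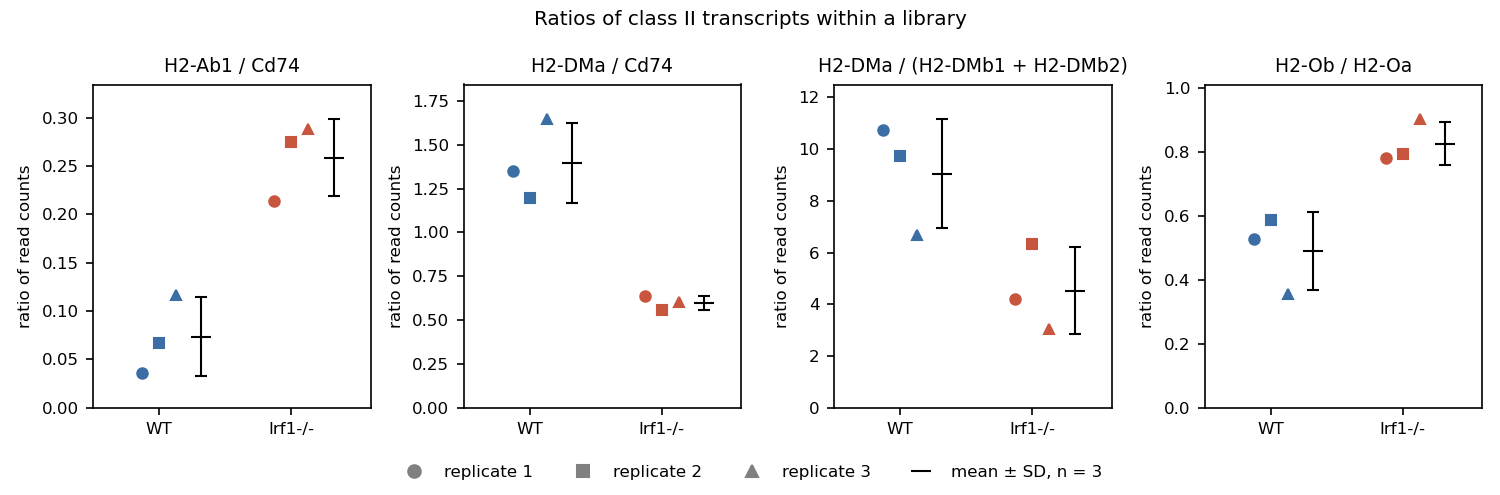
Ratio of read counts of class II pathway genes within a library (y axis, from 0) in 3 WT and 3 Irf1-/- libraries (x axis); points are libraries and bars the mean ± SD (n = 3). H2-Ab1 over Cd74 rises from 0.0364 to 0.117 in WT to 0.213 to 0.288 in Irf1-/- libraries, and H2-DMa over Cd74 lies above 1 in WT and below 1 in Irf1-/- libraries.

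Along the class II region of chromosome 17, from the start of H2-Oa at 34092340 to the end of H2-Eb2 at 34341412, the annotation holds 18 genes, of which 13 were tested. The region was delimited after the values were known. H2-Ob and H2-Ab1, neighbours on the same strand, were the only genes in it called higher. The 5 called lower were H2-DMa and the class I peptide supply genes Psmb9, Tap1, Psmb8 and Tap2, which lie between the H2-DM genes and H2-Ob and had log2 fold changes of -0.50, -0.30, -0.84 and -0.77. Beyond H2-Ab1, H2-Aa was too low to test and H2-Eb1 was not called. The map of the region shows the class II genes on both sides of this block.

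**Figure D3:**
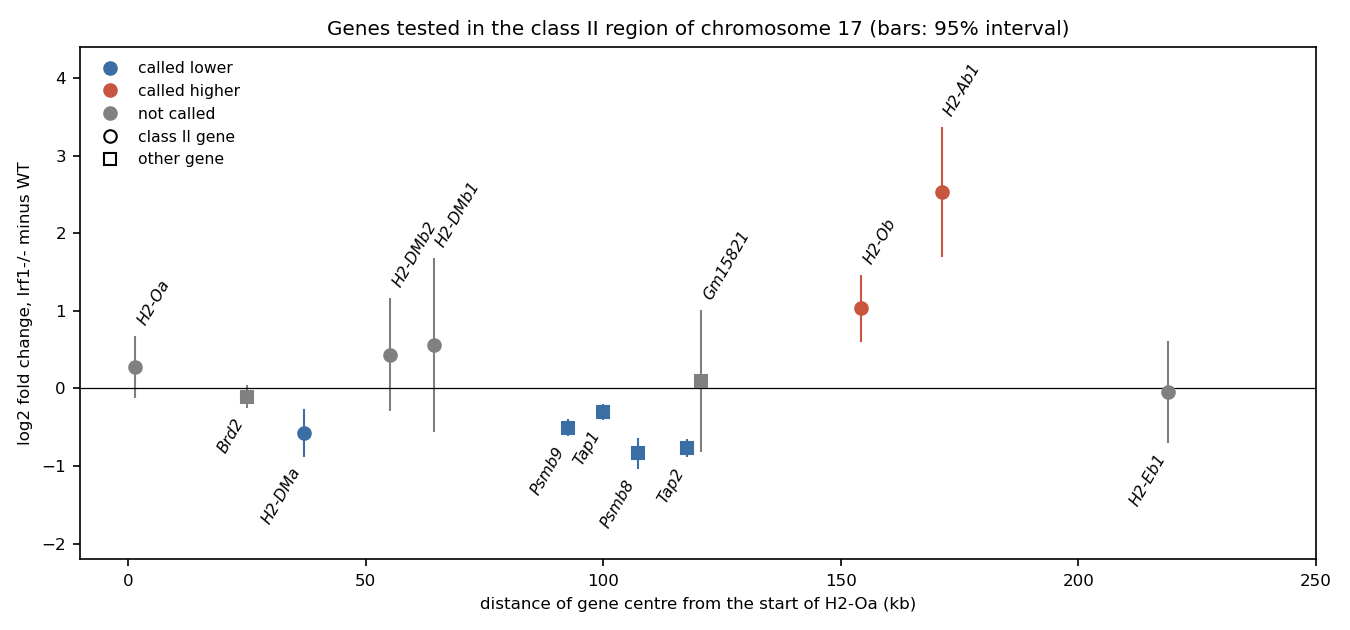
Log2 fold change, Irf1-/- minus WT (y axis), of the 13 genes tested in the class II region against the distance of the gene centre from the start of H2-Oa (x axis, kb); bars are 95% intervals and colours mark the call. H2-Ob (1.03) and H2-Ab1 (2.53) are called higher, and H2-DMa, Psmb9, Tap1, Psmb8 and Tap2 lower.

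The factors that assemble on the X and Y boxes were expressed in both genotypes. Of 7 listed, the RFX subunits Rfx5, Rfxap and Rfxank, the CREB family gene Creb1 and the NF-Y subunits Nfya, Nfyb and Nfyc, 2 were called lower, Creb1 (log2 fold change -0.27, adjusted p = 0.0270 by limma) and Nfya (-0.25, adjusted p = 0.0135 by limma), and none higher. Creb1 lost its call under 6 and Nfya under 2 of 18 alternatives. The mean normalized count of Rfx5 was 202 ± 26.0 in WT and 229 ± 37.8 in Irf1-/- cells (SD, n = 3 each). The median log2 fold change of the 7 was -0.02.

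Among genes that lead from IFN-γ to CIITA, the receptor chains Ifngr1 and Ifngr2, the kinases Jak1 and Jak2 and Usf1 were not called. Irf2, an IRF family member with which IRF1 shares sites and which acts on a CIITA promoter, fell from 413 ± 20.4 to 209 ± 36.5 (SD, n = 3 each), a log2 fold change of -0.99 (adjusted p = 0.000315 by limma).

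Among 10 genes for processing of the invariant chain and antigen, the 9 tested split by direction, with 2 lower, 2 higher and 5 not called. Ctss, the protease best known for the last cuts of the invariant chain in B cells and dendritic cells, was lower, at 559.1, 536.2 and 480.1 in WT and 260.3, 274.6 and 225.6 in Irf1-/- libraries, with no overlap (log2 fold change -1.05, adjusted p = 4.69e-05 by limma). Ctsl, which does this in thymic epithelium, was higher, at 77.4, 83.0 and 98.3 in WT and 133.7, 172.0 and 138.7 in Irf1-/- libraries (log2 fold change 0.77, adjusted p = 0.00364 by limma), a call kept under the 18 alternatives with 2 or more WT libraries. Cd74 and Ctss thus moved in opposite directions. Ctse, an aspartic protease of endosomes, showed the largest log2 fold change of this list, -4.01 (adjusted p = 1.02e-06 by limma), from 443 ± 28.1 to 27.6 ± 9.72 (SD, n = 3 each). Lgmn, which can start the degradation of the invariant chain, was higher by 0.58, a call that 6 of 18 alternatives lost. Ifi30, Ctsb, Ctsd, Ctsz and Sppl2a, the last of which clears the remaining membrane stub of CD74, were not called.

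Of 3 genes for turnover of class II molecules, Marchf8, a ubiquitin ligase, was called lower (log2 fold change -0.76, adjusted p = 0.0379 by limma) although its genotypes overlapped, and 7 of 18 alternatives lost the call. Cd83, which opposes such ligases, was not called and Marchf1 was too low to test. In its other role, as the receptor of MIF, CD74 signals with CD44 and the chemokine receptors CXCR2 and CXCR4. Cd44 was lower in each Irf1-/- library, at 3066, 2925 and 3078 against 4876, 4739 and 4809 in WT, a log2 fold change of -0.67 (adjusted p = 9.40e-06 by limma) where that of Cd74 was 0.63. The ligands Mif and Ddt were higher by 0.28 and 0.50 and Cxcr4 by 0.86, calls that 5, 6 and 8 alternatives lost, and Cxcr2 was listed at 0 in all libraries.

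Among costimulatory ligands and class II receptors, Cd80 was lower (log2 fold change -1.79, adjusted p = 0.00183 by limma), and Cd86, Cd40, Cd4 and Lag3 were not called. Over the class II pathway lists together, without the 8 genes, 41 genes were listed and 36 tested, of which 9 were lower, 6 higher and 21 not called, and their log2 fold changes had a median of -0.01. Of all genes tested, 12.4% were lower and 11.4% higher, as above, and the counts for the single lists are to be read beside these shares. For comparison, 7 of 9 class I genes listed were lower and none higher, with a median of -0.35. They included Tapbp (-1.83), which edits class I peptides, and B2m (-0.35), the class I light chain.

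**Figure D4:**
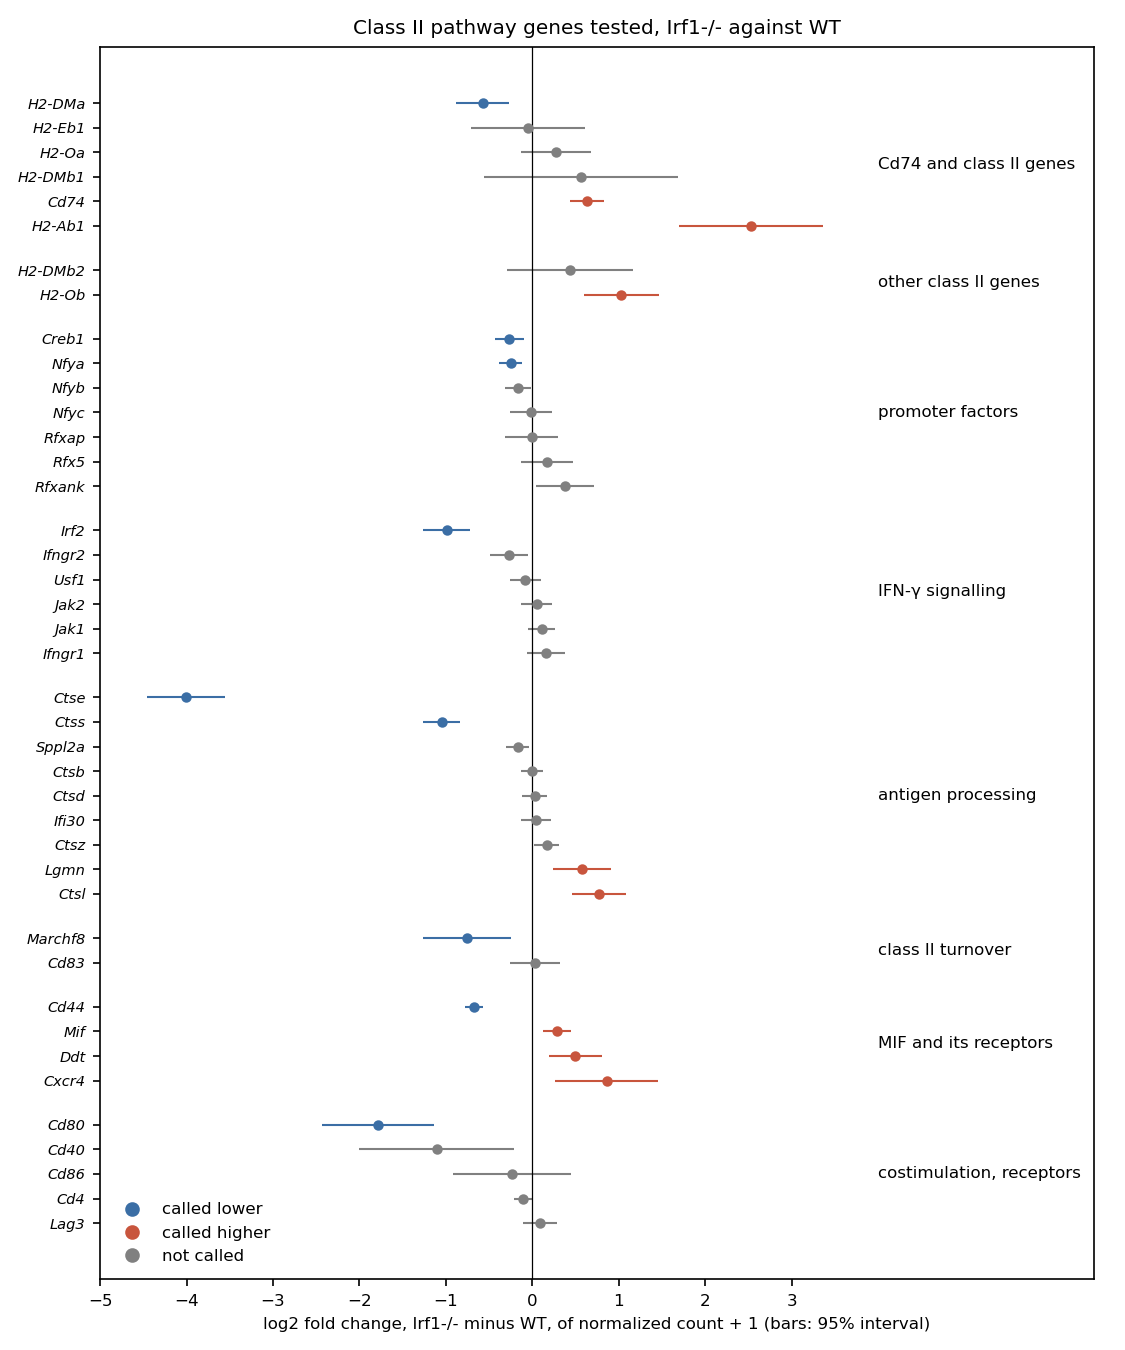
Log2 fold change, Irf1-/- minus WT, on normalized count plus 1 (x axis) of the tested class II pathway genes named in the text, grouped by list (y axis); bars are 95% intervals and colours mark the call at an adjusted p below 0.05. H2-Ab1 is the farthest to the right and Ctse the farthest to the left.

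Markers of professional antigen-presenting cells were read beside these values, since such cells carry class II transcripts at high levels. Of 13 B-cell markers matched, Ighm and Cd37 exceeded a normalized count of 100 in every library and were set apart. This cut was chosen after the values had been seen and takes abundant markers out of the sums. Ighm, with means of 672 in WT and 461 in Irf1-/- cells, was lower (log2 fold change -0.54), a call lost without the trend. With both included, the B-cell sums were 1652 to 1700 in WT and 1483 to 1610 in Irf1-/- libraries. The other 11 summed to 39.3 to 49.9 in WT and to 39.0 to 66.6 in Irf1-/- libraries, with Pax5 at 0 and Ms4a1 at no more than 4.16. Of these 11, 2 lay higher and 1 lower in every Irf1-/- library than in any WT library, beside 19.7% and 20.9% of all genes tested. Only Cd79b of the 11 passed the filter on low values, so these shares are not a like comparison. Ebf1 was at 0, 1.20 and 0 in WT and 3.58, 5.55 and 13.4 in Irf1-/- libraries, too low to test, and Cd79b was at 11.2, 15.6 and 16.0 in WT and 26.3, 18.03 and 17.3 in Irf1-/- libraries (log2 fold change 0.49, adjusted p = 0.262 by limma). Blnk, the lower one, was at 8.74, 8.42 and 5.53 in WT and 4.78, 2.77 and 0.639 in Irf1-/- libraries. The part of B cells in the results for Cd74 and H2-Ab1 was not tested. Of 10 dendritic markers, Batf3 and Ccr7 were likewise set apart, and the other 8 summed to 22.1 to 47.4 in WT and to 30.7 to 34.6 in Irf1-/- libraries, 7 of them with no more than 3 reads in any library. Among those 7, Itgax and Flt3 lay higher in every Irf1-/- library than in any WT library, at normalized counts of at most 3.58. Without the markers set apart, the ranges of the sums overlapped between the genotypes, and those of the B-cell sums with Ighm and Cd37 did not.

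The myeloid markers varied most. Without Cst3, the other 11 summed to 152 to 293 in WT and to 63.9 to 843 in Irf1-/- libraries, and 10 of them were highest in Irf1-/- replicate 2, where Lyz2 reached 558.9 against 133.7 and 7.03 in Irf1-/- replicates 1 and 3. Of the 11, Fcgr3 lay higher in every Irf1-/- library, at 3.58, 23.6 and 3.83 against 1.25, 2.404 and 0.615 in WT, and Mpeg1 lay lower. Irf1-/- replicate 3, which had the lowest myeloid sum of all libraries, held Cd74 at 526.0 and H2-Ab1 at 151.5. Its B-cell sum of 39.0 was close to the 39.3 of WT replicate 3, and Ebf1 was highest in it. With Ighm and Cd37 included, the B-cell sum was 1593 in Irf1-/- replicate 3 and lowest, at 1483, in Irf1-/- replicate 1. H2-Aa was highest in Irf1-/- replicate 2 and lowest in Irf1-/- replicate 3. The part of myeloid cells in these values was not tested. Without Irf1-/- replicate 2 the log2 fold change of Cd74 was 0.58 and that of H2-Ab1 2.43, both still called (adjusted p = 0.00747 and 0.0107 by limma). The plot of marker sums beside the class II genes shows the values by library.

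**Figure D5:**
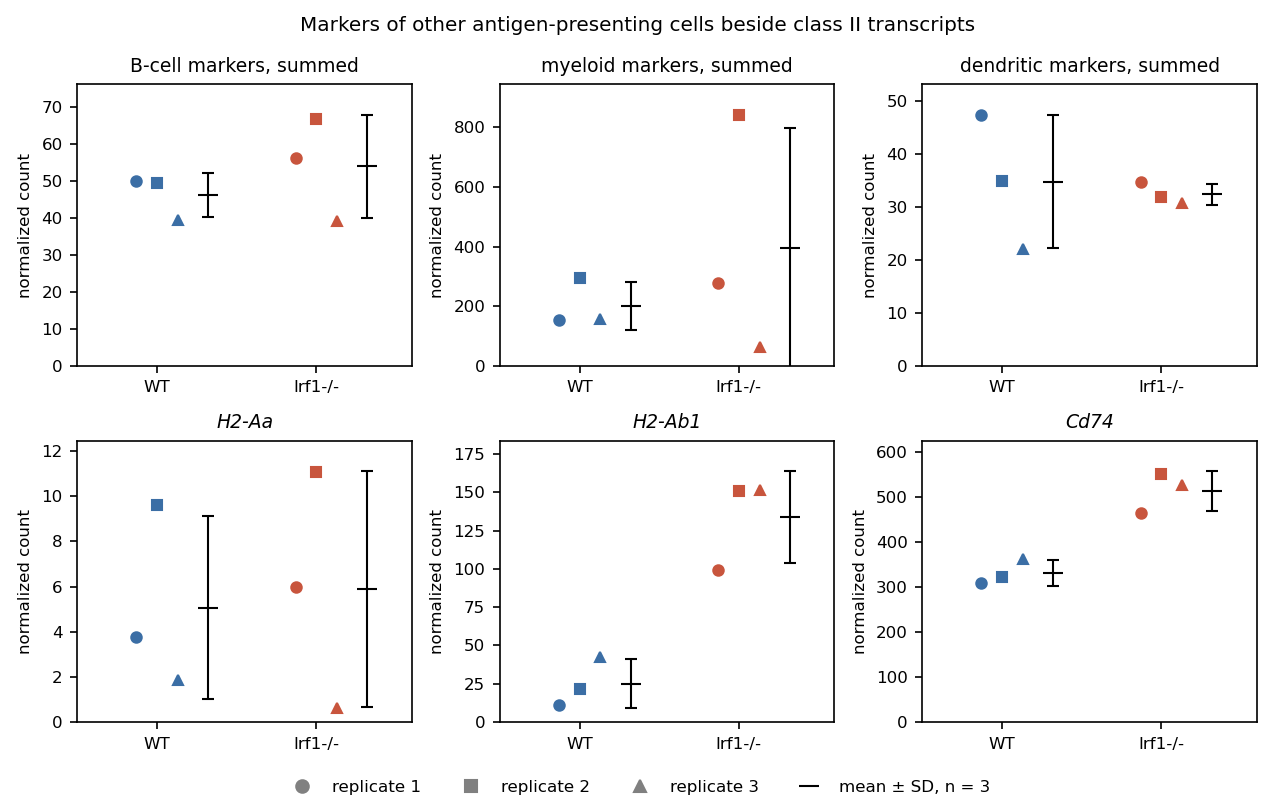
Upper panels show normalized counts summed over 11 B-cell, 11 myeloid and 8 dendritic markers, and lower panels the normalized counts of H2-Aa, H2-Ab1 and Cd74 (y axes, from 0), in 3 WT and 3 Irf1-/- libraries (x axis); points are libraries, bars the mean ± SD (n = 3), cut at 0 for the myeloid sum. The myeloid sum peaks at 843 in Irf1-/- replicate 2 and is lowest, at 63.9, in Irf1-/- replicate 3, where H2-Ab1 is as high as in replicate 2.

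The genes whose levels ran most like Cd74 were Rack1 (Pearson's r = 0.998), Gm45837 (0.998), Shkbp1 (0.996), Cotl1 (0.996) and Acsbg1 (0.996), on log2 values over the 6 libraries, which fall into the 2 genotypes and so favour any gene that differs between them. Among the other class II genes, H2-Ab1 followed Cd74 most closely (r = 0.978, rank 72 of the genes tested), then H2-Ob (0.940) and H2-Oa (0.789). H2-DMb1 (0.454) and H2-Eb1 (0.005) followed it less, and H2-DMa ran against it (-0.667).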

How the data were processed

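The authors sequenced poly(A) RNA as single-end reads, aligned it with STAR 2.4.0b to GRCm38, counted reads on Ensembl genes with featureCounts and normalized in DESeq2 1.12.3. The deposited signal is a normalized count per gene, a read count divided by a library's size factor. Dividing by the step of each library gave whole reads for 100% of values above 0 (tolerance 1e-06 reads). Whether the counting used strand is not given in the sources used here.

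Genotypes were compared in R 4.3.3 with limma 3.58.1 (eBayes with a trend on log2 of the normalized count plus 1, genes with a mean of at least 10). On the recovered reads, edgeR 4.0.16 called 1417 genes lower and 1261 higher and DESeq2 1.42.0 called 1060 and 942, against 1406 and 1293 by limma. Gene positions and exon lengths came from GENCODE M21 (GRCm38). Alternatives were pseudocounts, filters, quantile and TMM scaling, no trend, a replicate block, edgeR, DESeq2, a Y-linked covariate and each library left out; the subsets by Xist and by size were added later. Counts of lost calls leave out the Xist subset, which holds 1 WT library. Named are the 8 genes, the pathway and marker lists, and the 5 genes most like Cd74. The genes and lists were chosen with earlier results of these data known. The labels and methods give the 3 samples of a genotype as biological samples without naming mice, so p-values measure the spread between these samples. Replicate numbers were not taken as pairs. Some genes of the lists, which enter the counts, are not reported here. The study's ChIP data were not analysed here.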

Additional observations from a re-analysis of the deposited data

How the results depend on the processing

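Cd74 and H2-Ab1 kept their direction and call under the 18 alternatives with 2 or more WT libraries, so that 2 of the genes were higher in each. The 4 libraries with Xist hold 1 WT library, so that subset gives values only, its spread coming from the Irf1-/- libraries alone. Leaving out single libraries gave log2 fold changes from 0.58 to 0.70 for Cd74, from 2.08 to 2.99 for H2-Ab1, from -0.70 to -0.38 for H2-DMa, from -0.33 to 0.14 for H2-Eb1, from 0.19 to 0.42 for H2-Oa and from 0.031 (without WT replicate 2) to 1.08 (without WT replicate 3) for H2-DMb1, with 0 to 1 of these genes called lower. That number was 0 without the trend and without Irf1-/- replicate 1. Directions turned only for genes that were not called. H2-DMb1 was at -0.43 with a covariate for Y-linked transcripts and at -0.48 in the 4 libraries with Xist. H2-Eb1 was at 0.13 with that covariate, 0.063 in the libraries with Xist, 0.082 in the 4 smaller libraries, 0.05 without Irf1-/- replicate 1 and 0.14 without Irf1-/- replicate 3. H2-Oa was at -0.023 in the libraries with Xist. The cause was not tested. The filter of 50 left out H2-DMb1 and H2-Eb1, and no fold is reported for Ciita or H2-Aa at their depth, although both enter the fit without a filter.

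With the replicate number as a block, 2116 genes were lower and 1893 higher, against 1406 and 1293 without it, and DESeq2 called 1060 and 942. The calls of Cd74 (0.63), H2-Ab1 (2.53) and H2-DMa (-0.58) were the same under the block. Same-numbered libraries deviated together with r of 0.0922, 0.269 and 0.321, and each library correlated best with its own number, a hint from the data only. Calls over all genes numbered 807 lower and 928 higher without the trend, 392 and 392 in the 4 libraries with Xist (1 of them WT), and 1099 and 856 with the Y-linked covariate.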

Other observations

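The dendritic markers Batf3 and Ccr7, which were abundant in every library, moved in opposite directions. Batf3, a transcription factor of cross-presenting dendritic cells that activated T cells also make, was at 192.2, 180.3 and 323.9 in WT and at 657.9, 656.0 and 703.0 in Irf1-/- libraries, with no overlap (log2 fold change 1.58, adjusted p = 0.000197 by limma). Ccr7, a lymph node homing receptor of T cells and dendritic cells, was lower (log2 fold change -0.43, adjusted p = 0.00154 by limma). Cst3, listed with the myeloid markers and above 100 in every library, was higher by 0.33, a call that 6 of 18 alternatives lost, and Mpeg1, a macrophage marker, was lower by a log2 fold change of -1.16 (adjusted p = 0.0367 by limma), a call that 4 of 18 lost.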
